A study of Mus musculus with 2 samples.

Results

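The 2 arms of the miRNA hairpins miR-126a, miR-221 and miR-222 were followed in the hearts of E9.5 mouse embryos. All precursors were taken whose miRBase name, without the species prefix and the arm, is miR-126a, miR-126b, miR-221 or miR-222. This gave 3 precursors of the 620 listed in either replicate and of the 471 listed in both. Each name gave 1 precursor except miR-126b, which had 0 entries in both replicates. The samples form 1 group of 2 replicates, hearts of wild type C57BL/6 embryos at embryonic day 9.5, with no treatment, no mutant and no second tissue or stage. Total RNA was extracted with TRIZOL, made into libraries with the TruSeq small RNA kit and sequenced on HiSeq2500 in single-end reads of 50 nt. The labels do not say whether the replicates came from separate embryos, litters or pools, so the spread between them may be technical.

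A miRNA precursor is a hairpin whose stem is cut into a duplex of 2 short RNAs, one from the 5′ arm and one from the 3′ arm. The strand that is kept in the Argonaute complex is called mature and the strand that is mostly lost is called star, and bases 2 to 8 of each, the seed, pair with the target mRNA. MiR-126 lies within Egfl7, a gene that encodes a secreted protein of endothelial cells, and is itself known as an endothelial miRNA that represses Spred1 and Pik3r2, negative regulators of VEGF signalling. MiR-221 and miR-222 are made from neighbouring hairpins on the X chromosome and are known in vascular cells, where Kit, the receptor of stem cell factor, and Cdkn1b, a cell cycle inhibitor, are among their targets. No mRNA was measured in these libraries, so the word endothelial could not be checked against mRNA markers of endothelial cells. In whole hearts, fewer cells of a type and less RNA per cell cannot be told apart.

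The mature sequences in the deposited tables show which arms were compared and how the seeds of miR-221 and miR-222 relate. They are written 5′ to 3′ with the seed in capitals.
miR-126a-3p: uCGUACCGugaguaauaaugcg
miR-126a-5p: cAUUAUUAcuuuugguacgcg
miR-221-3p: aGCUACAUugucugcuggguu
miR-221-5p: aCCUGGCAuacaauguagauuuc
miR-222-3p: aGCUACAUcuggcuacuggguc
miR-222-5p: cUCAGUAGccaguguagaucc
Bases were compared in order from the 5′ end, without gaps or shifts. MiR-221-3p and miR-222-3p carried the same seed and were identical over their first 8 bases and, compared in this way, at 11 of 21 positions. Their 5p arms had different seeds and matched at 2 of 21 positions. Both 5p arms hold the letters uguagau, but 1 base out of register, so this count misses them and understates their likeness. No other precursor in the tables had the seed of any of these 6 arms on either arm. The RefSeq sequence (GRCm38.p6) of miR-126a-3p was identical to the one in the tables. RefSeq gave miR-221-3p 2 further bases at the 3′ end, miR-221-5p 3 further bases and miR-222-3p 1 further base.

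The precursors, with both arms in capitals and the loop between them in lower case, show that the 3p arm lies at the 3′ end of each hairpin.
miR-126a: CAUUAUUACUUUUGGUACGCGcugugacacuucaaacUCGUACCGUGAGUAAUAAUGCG
miR-221: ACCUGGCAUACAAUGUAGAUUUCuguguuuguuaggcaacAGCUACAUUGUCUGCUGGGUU
miR-222: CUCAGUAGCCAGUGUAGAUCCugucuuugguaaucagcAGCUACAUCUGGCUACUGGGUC
The loops had 16, 17 and 17 bases. Folded with RNAfold, the hairpins of miR-126a, miR-221 and miR-222 had minimum free energies of -22.1, -25.4 and -29.0 kcal/mol. Per base these were -0.375, -0.416 and -0.483 kcal/mol, beside a median of -0.397 over the precursors. In the folds, 18 of 22 bases of miR-126a-3p, 18 of 21 of miR-221-3p and 17 of 22 of miR-222-3p were paired with the opposite arm.

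MiR-126b, which shares its host site with miR-126a, is shown because its absence from the tables concerns the same locus. Its RefSeq arms are as follows, with the seed in capitals.
miR-126b-5p: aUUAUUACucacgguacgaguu
miR-126b-3p: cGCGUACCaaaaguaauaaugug
Its RefSeq hairpin of 58 bases was the reverse complement of part of the miR-126a hairpin. The 3p arm of miR-126b contained the reverse complement of all 21 bases of miR-126a-5p. No entry lay on the strand opposite miR-126a in either replicate, and with no entry no value can be given for miR-126b.

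The miR-126a precursor lay at chr2:26446885-26446943 on the plus strand of mm9 (59 nt). In GENCODE vM1 it lay inside Egfl7 (chr2:26435534-26448640), in the same orientation, and also overlapped the annotated gene Gm20532. It was spanned by 11 Egfl7 transcripts. In the transcript Egfl7-001, which has 10 exons, it was in intron 7 (600 nt), 301 bp after the exon before it and 240 bp before the next. In 1 of the 11 transcripts, Egfl7-008, annotated as a retained intron, the last of 4 exons ran over the precursor. The 5p arm covered chr2:26446885-26446905 and the 3p arm chr2:26446922-26446943.

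The miR-221 and miR-222 precursors lay on the minus strand of the X chromosome, at chrX:18723435-18723495 (61 nt) and chrX:18724028-18724087 (60 nt). A gap of 532 bp separated them, with miR-222 upstream in the direction of transcription. No annotated gene other than their own miRNA genes covered them. The nearest annotated gene was the lincRNA Gm14636 on the same strand, at 10611 bp from miR-221 and 10019 bp from miR-222. The nearest protein-coding gene, BC049702, was 333050 bp from miR-221. Within 50 kb of the miR-221 and miR-222 precursors the tables held no entry besides each other.

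**Figure D1:**
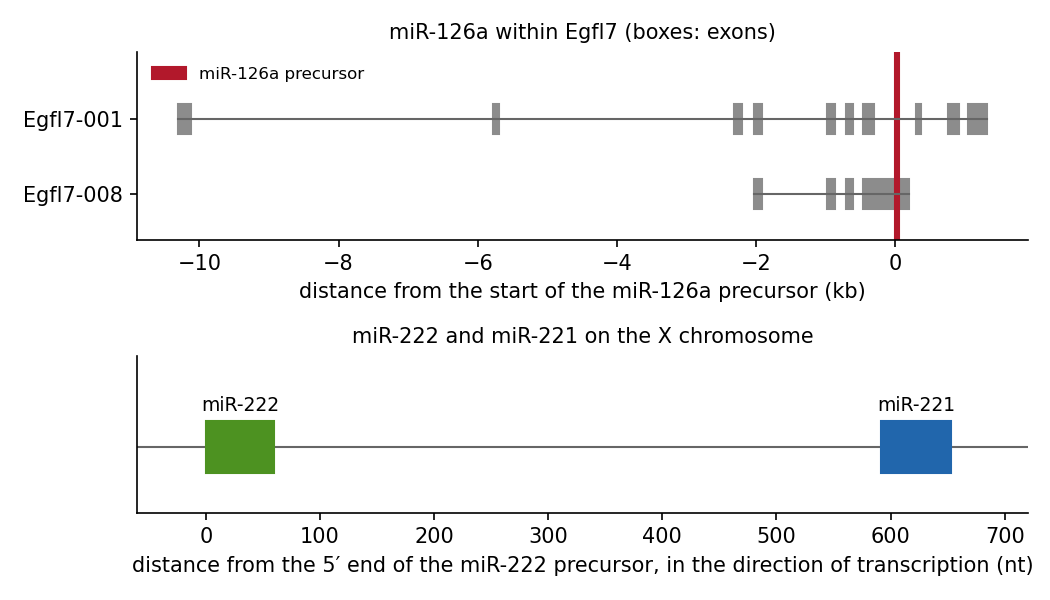
Positions of the 3 precursors, drawn to scale as distance in kb from the start of the miR-126a precursor (top, exons as boxes) and in nt from the 5′ end of the miR-222 precursor (bottom). MiR-126a lies in intron 7 of Egfl7-001 and under the last exon of Egfl7-008, and 532 bp separate miR-222 from miR-221.

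The libraries held 5067168 reads on known precursors in replicate 1 and 4939193 in replicate 2. Of these, 4942257 and 4806179 were mature reads, 124128 and 132103 were star reads, and 783 and 754 were loop reads. A read that fits several precursors with the same mature sequence can be counted at each of them, whereas miR-126a-3p, miR-221-3p and miR-222-3p each had 1 precursor. Levels below are shares of the mature reads of a replicate with 95% Wilson intervals. These intervals and the limit of 3 reads that a count of 0 allows cover counting error only, since reads were not molecules.

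MiR-126a gave its mature reads from the 3p arm and was among the most abundant miRNAs of the heart. MiR-126a-3p had 143108 mature reads in replicate 1 and 138053 in replicate 2. This was 2.90% (2.88% to 2.91%) and 2.87% (2.86% to 2.89%) of the mature reads, or 2.88% ± 0.0164 (SD, n = 2). It was number 8 of the 471 precursors in each replicate and number 6 when each arm sequence was counted once, among 846 distinct sequences. The precursor above it was miR-21a-5p, with 3.56% ± 0.305, and the one below it was miR-335-3p, with 2.64% ± 0.0589. The replicate values of miR-126a-3p overlapped with those of neither neighbour. With 2 replicates no permutation test between neighbours can reach an exact p below 0.05.

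MiR-221-3p and miR-222-3p were detected in both replicates at levels about 3 orders of magnitude below miR-126a-3p. MiR-221-3p had 134 reads in replicate 1 and 110 in replicate 2, equal to 27.1 (22.9 to 32.1) and 22.9 (19.0 to 27.6) reads per 1000000 mature reads (RPM). MiR-222-3p had 61 and 62 reads, equal to 12.3 (9.61 to 15.9) and 12.9 (10.1 to 16.5) RPM. MiR-221-3p was above miR-222-3p in both replicates and the intervals did not overlap within either replicate. The means were 25.0 ± 2.99 and 12.6 ± 0.394 RPM (SD, n = 2), which placed them at numbers 300 and 336 of 471.

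The order around these low-abundance miRNAs was not resolved. MiR-378d, just above miR-221-3p, had 25.5 ± 5.15 RPM, and miR-1931, just below it, had 23.9 ± 29.5, with 15 reads in replicate 1 and 215 in replicate 2. Neither differed from miR-221-3p beyond the spread. MiR-15a-5p, just above miR-222-3p, had 13.4 ± 0.170 RPM (67 and 64 reads) and miR-6399, just below, had 12.0 ± 1.54 (54 and 63 reads), and the read counts of both lay within the counting intervals of miR-222-3p.

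**Figure D2:**
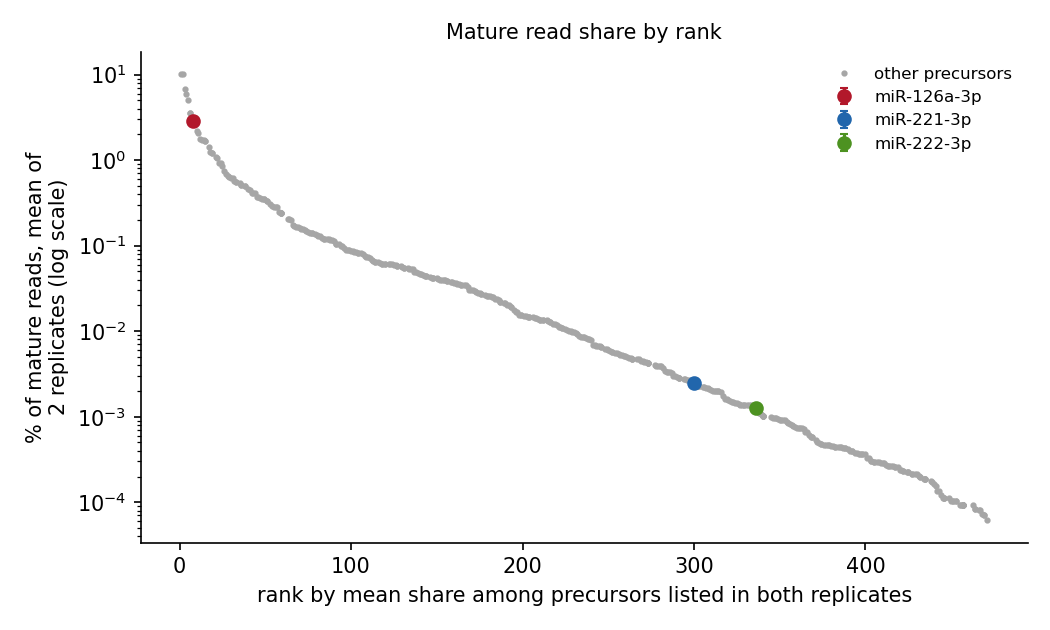
Mean share of mature reads in percent (log scale) against rank for the 471 precursors listed in both replicates, with the SD of miR-126a-3p, miR-221-3p and miR-222-3p drawn as bars smaller than the points. MiR-126a-3p is at number 8, and miR-221-3p and miR-222-3p are at numbers 300 and 336.

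Between the members, miR-126a-3p had 1068 reads for each read of miR-221-3p in replicate 1 and 1255 in replicate 2 (mean 1162 ± 132). Against miR-222-3p the ratio was 2346 and 2227 (mean 2286 ± 84.4). The ratio of miR-221-3p to miR-222-3p was 2.20 (1.61 to 3.02) in replicate 1 and 1.77 (1.29 to 2.46) in replicate 2, with a mean of 1.99 ± 0.299, so that miR-221-3p was the higher arm of the pair in both. The difference between the replicates was within the intervals. Among 117 pairs of neighbouring precursors on one strand with a gap of at most 10 kb, the median fold between neighbours was 3.79, and 30 pairs (25.6%) were closer in level than miR-221 and miR-222, whose fold from mean shares was 1.98.

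All 3 precursors are listed under the 5p arm, yet their reads lay mainly on the 3p arm. This naming was common, with 262 of 568 entries in replicate 1 and 240 of 523 in replicate 2 named 5p with the mature reads on the 3p arm. MiR-126a-5p, the star arm, had 7948 reads in replicate 1 and 8137 in replicate 2. No loop read was listed in either, which allows up to 3. This was 5.26% (5.15% to 5.38%) and 5.57% (5.45% to 5.68%) of the mature and star reads, a mean of 5.41% ± 0.215. There were 18.0 and 17.0 reads of the 3p arm for each read of the 5p arm.

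The star arms of the pair on the X chromosome were close to the detection limit. MiR-221-5p had 2 reads in replicate 1 and 1 in replicate 2, or 1.47% (0.404% to 5.20%) and 0.901% (0.159% to 4.93%) of the arm reads. MiR-222-5p had 2 and 6 reads, or 3.17% (0.875% to 10.9%) and 8.82% (4.11% to 17.9%). All 4 intervals are wide. Those of miR-221, miR-222 and miR-126a overlapped in replicate 1, whereas in replicate 2 the interval of miR-221 ended below that of miR-126a. Set against each other within a replicate, the star share of miR-222 exceeded that of miR-221 by 1.70 percentage points (-2.68 to 9.46) in replicate 1, with a p of 0.592 by Fisher's exact test, and by 7.92 points (1.72 to 17.1) in replicate 2, with an exact p of 0.0126. Adjusted over these 2 tests, which were added after the counts were seen and compare reads within 1 library, the exact p in replicate 2 was 0.0253. The difference was therefore past the threshold in 1 of 2 replicates and rests there on 1 and 6 star reads.

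**Figure D3:**
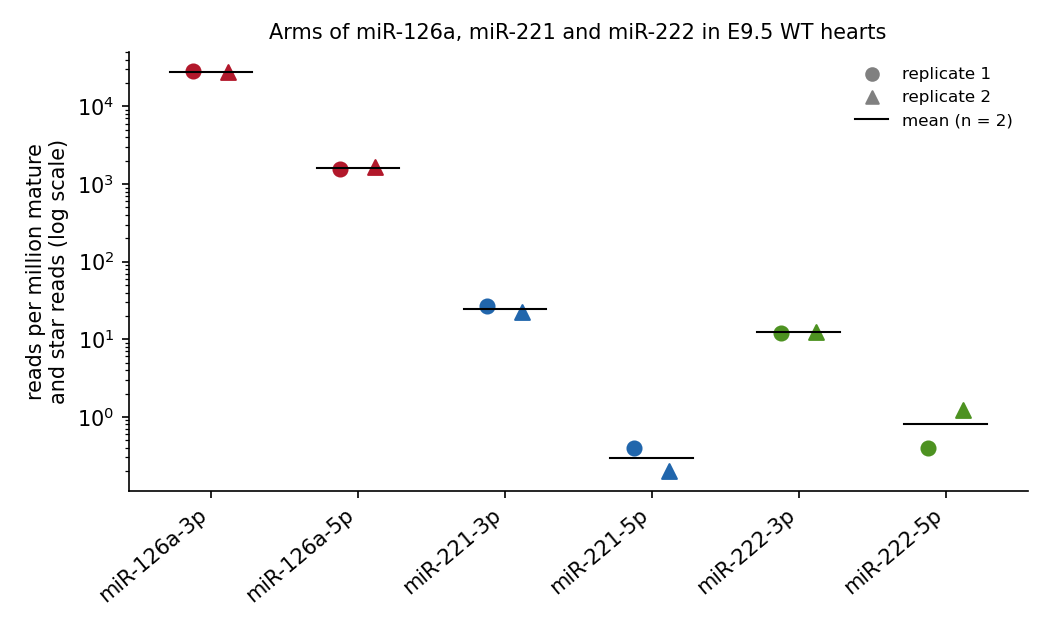
Reads per 1000000 mature and star reads (log scale) of the 6 arms in replicate 1 (circles) and replicate 2 (triangles), with a line at the mean of 2. MiR-126a-5p, a star arm, lies above both 3p arms of miR-221 and miR-222, and the 5p arms of miR-221 and miR-222 rest on 1 to 6 reads.

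MiR-126a-5p was abundant for a star arm. It reached 1569 and 1648 reads per 1000000 mature and star reads (mean 1608 ± 55.8), number 55 of the distinct arm sequences, and was above 345 of the 397 sequences (86.9%) that were the major arm of their precursor. MiR-30a-3p (1612 ± 104) and miR-298-5p (1549 ± 12.5) were its neighbours in that order, and the spreads of miR-126a-5p and miR-30a-3p overlapped. It had 40.8 times the summed reads of miR-221-3p and miR-222-3p in replicate 1 and 47.3 times in replicate 2 (mean 44.0 ± 4.63).

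In the share of reads on the star arm, miR-126a stood inside the range of other precursors. Of 190 precursors with at least 1000 arm reads in each replicate, 57 (30.0%) had a higher share than miR-126a, and the median was 0.879% with quartiles of 0.0356% and 7.29%. The 96 precursors with a mature 3p arm had a median of 0.879% and the 94 with a mature 5p arm 0.856%. Among the 20 most abundant precursors miR-126a was second, after miR-434-5p with 9.07% and 8.39%, and before miR-133a-3p with 5.15% and 5.09%. The median of those 20 was 0.397%. This median and that of the 190 include precursors that repeat a mature sequence, some of them without star reads. Of 50 precursors with 50 to 200 arm reads in each replicate, the class of miR-221 and miR-222, 22 had no star read, 23 had a higher star share than miR-221 and 12 a higher one than miR-222.

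**Figure D4:**
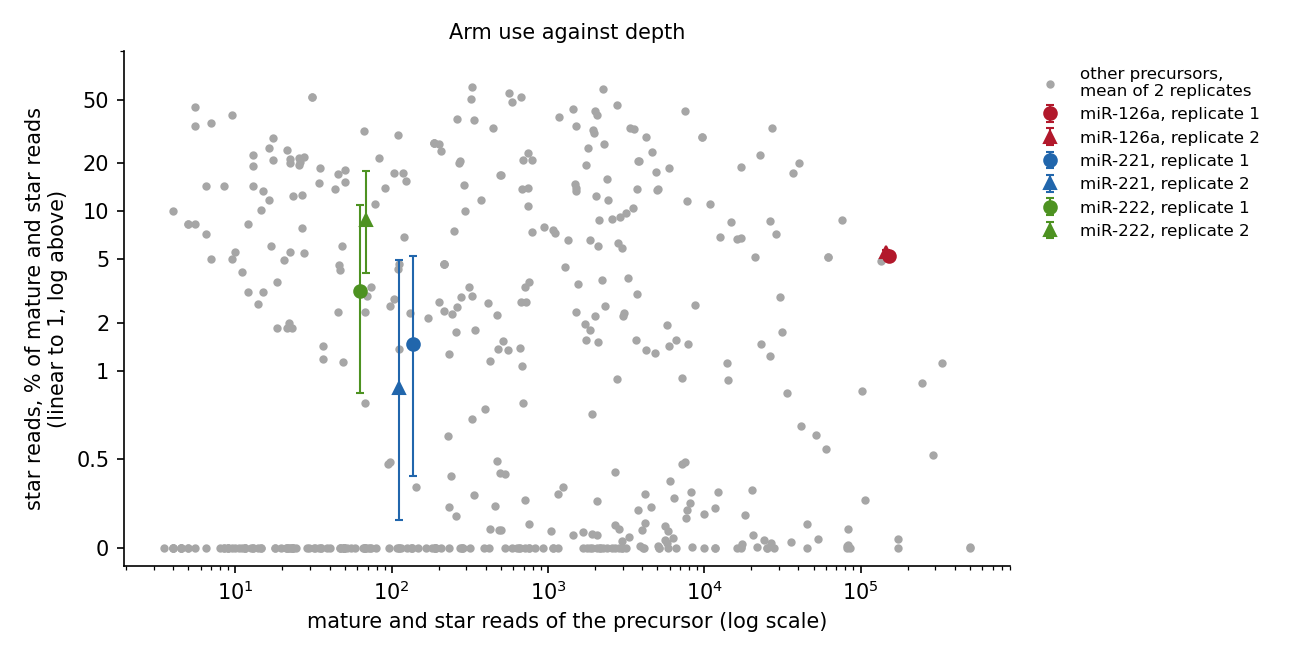
Star reads in percent of mature and star reads (linear to 1, log above) against the mature and star reads of the precursor (log scale), with 95% Wilson intervals for the 3 precursors in each replicate and the mean of other precursors in grey. The intervals of miR-126a are smaller than the points at 5.26% and 5.57%, and those of miR-222 reach from 0.875% to 17.9%.

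The replicates were compared with each other to see how far each value holds between libraries. The log2 ratio of the share in replicate 2 to that in replicate 1 was -0.01 (-0.02 to -0.00093) for miR-126a-3p, with an adjusted p of 0.0766 by the two-sided exact binomial test over 431 precursors. It was -0.24 (-0.62 to 0.13) for miR-221-3p and 0.06 (-0.47 to 0.60) for miR-222-3p, with adjusted p of 0.331 and 0.917 by the exact binomial test. None of the 3 passed after adjustment, whereas 177 of the 431 precursors, 41.1%, passed, 119 of them higher in replicate 2 and 58 higher in replicate 1. Before adjustment the exact p was below 0.05 for 1 of the 3, miR-126a-3p (0.0331), and for 201 of the 431. The median size of the log2 ratio over the 431 precursors was 0.19. At 61 to 134 reads the intervals of miR-221-3p and miR-222-3p span differences of that size.

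The result for miR-126a-3p depended on how the libraries were scaled. With edgeR's TMM scaling its log2 ratio was -0.07 with an adjusted exact binomial p of 5.78e-37, and with the size factors of DESeq2 it was -0.08 with 1.59e-47. In size both were below the median of 0.19 given above, which was computed from shares of mature reads and not under these scalings. With TMM 178 of the 431 precursors (41.3%) were called, 86 higher in replicate 2 and 92 in replicate 1. With DESeq2 176 (40.8%) were called, 78 higher in replicate 2 and 98 in replicate 1. These p-values cover counting error only, so at the depth of miR-126a-3p a small difference gives a very low p.

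Arm use of miR-126a differed slightly between the replicates. The star share was 0.304 percentage points (0.142 to 0.467) higher in replicate 2, with an adjusted p of 0.00503 by Fisher's exact test over 427 precursors. Of these, 32 (7.49%) passed, 21 with more star reads in replicate 2 and 11 in replicate 1. MiR-221 and miR-222 did not pass, each with an adjusted p of 1 by Fisher's exact test. Of the 48 precursors with at least 1000 star reads in sum, to which miR-126a belongs, 22 (45.8%) passed. The median size of difference over all 48, passing or not, was 0.931 points, above that of miR-126a. The star share over all precursors was also higher in replicate 2, 2.68% against 2.45%, and its part in the difference of miR-126a was not tested.

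Among 20 other miRNAs named for vascular cells or vessel growth, miR-126a-3p was above, and miR-221-3p and miR-222-3p below, each of the 19 listed in both replicates. This order depends on which miRNAs the list holds, and the list was chosen with earlier results of these data known. Smooth muscle miR-143-3p, placed in a separate list below, had 6.75% ± 0.794 (number 3), above miR-126a-3p. Taking the highest precursor for each name, the 19 ran from 0.00393% ± 0.00102 for miR-10b-5p (230 and 154 reads, number 278) to 2.19% ± 0.211 for miR-92a-3p (100633 and 112216 reads, number 10). Summed, they took 5.48% and 5.73% of the mature reads. By the exact binomial test 12 of 19 passed between the replicates, 6 higher in each, beside 41.1% of all precursors. Of precursors with at least 100 reads in sum 52.5% passed, so the share called rose with depth, which was not matched here. For 1 of these, miR-27a, the arm listed as mature differed between the replicates. Their median log2 ratio was -0.02, beside 0.07 over the 431 precursors.

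Lists for other cell types give the makeup in which the 3 precursors were measured. Of 5 cardiac muscle miRNAs, 4 (miR-1a, miR-133a, miR-208b and miR-499) were listed in both replicates and the list took 11.4% and 11.9% of mature reads. These sums take only the highest precursor of each name, whereas the total of mature reads counts every precursor. Another precursor of miR-1a was thus left out. Its share was almost the same as that of the one taken, 10.2% for each as a mean of the replicates. A read that fits both can be counted at each, so these counts need not be further reads. The total holds both, so the cardiac muscle sum is low against that total. The smooth muscle miRNAs miR-143 and miR-145a took 7.94% and 6.82%. Of 8 names of blood cell miRNAs, 5 were listed in both replicates, and miR-486a and miR-486b among them have the same mature sequence. With that sequence counted once the blood list summed to 0.119% and 0.144% against 2.90% and 2.87% for miR-126a-3p, with miR-486a at 5456 and 6534 reads (miR-486b at 5264 and 6380), miR-451a at 128 and 127, miR-142a at 227 and 207, and miR-150 at 46 and 44. MiR-223 was not listed. MiR-150 lay below miR-221-3p and miR-222-3p in both replicates, and miR-451a lay within the counting intervals of miR-221-3p. Liver miR-122 had 2083 and 2664 reads and neural miR-9 had 237 and 178. Between the replicates 4 of 4 cardiac muscle, 1 of 2 smooth muscle and 1 of 4 distinct blood miRNAs (miR-486a) passed the exact binomial test, as did miR-122 and miR-9. Of all precursors 41.1% passed, and depth was not matched in this comparison either. The part of these cell types in the levels of miR-126a, miR-221 and miR-222 was not tested.

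Known targets were searched for seed matches in the longest annotated 3′ UTR of each gene, as a description of sequence and not of repression. The letters CGGTACG or GGTACGA, which match miR-126a-3p, occurred in 164 of 19915 3′ UTRs (0.824%), whereas TAATAAT or AATAATA for miR-126a-5p occurred in 3453 (17.3%) and ATGTAGC or TGTAGCA for miR-221-3p and miR-222-3p in 2762 (13.9%). Only the transcript strand was read, and overlapping letters of one kind were joined to 1 match where they share the seed core. Sites in known target genes follow, with the matching letters in capitals.
Spred1, miR-126a-3p: actaaatgtaaGGTACGAactatgacata
Kit, first match of miR-221-3p and miR-222-3p: atgggagatatATGTAGCAagactagaaaa
Kit, second match: taaatattgaaATGTAGCAataatgtcttt
Cdkn1b, miR-221-3p and miR-222-3p: aaaagcattggATGTAGCAttgcgcaatta
Ets1, miR-221-3p and miR-222-3p: atacactggaaATGTAGCAgcattgctgca
The Spred1 match lay at chr2:117004196-117004202 (plus strand, mm9), bases 511 to 517 of a 3′ UTR of 4330, and 2.14% of 3′ UTRs of like length held a match to miR-126a-3p. The Kit matches lay at chr5:76051017-76051024 and chr5:76052548-76052555 on the plus strand, in a 3′ UTR of 2177 bases, where 22.9% of those of like length held a match. Cdkn1b had 3 matches in 3439 bases, the one shown at chr6:134874449-134874456, and Ets1, an endothelial transcription factor, had 2 in 3395 bases, the one shown at chr9:32564535-32564542. At those lengths 34.4% and 34.2% of 3′ UTRs held a match. Dlk1, known as a target of miR-126a-5p, had 3 overlapping matches within bases 233 to 245 of 2976, beside 35.1% at like length. Pik3r2 and the adhesion molecule gene Vcam1 held no match to miR-126a-3p in these windows, nor did Dll4, a Notch ligand, to miR-221-3p.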

How the data were processed

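Small RNA libraries of 2 replicates of E9.5 hearts were analysed, 1 group with no conditions. The authors ran miRDeep2 on reads mapped to mm9 and deposited raw counts of mature, loop and star reads of each known precursor, separately for each replicate and without normalization. The miRDeep2 score, also deposited by the authors, was read but enters no result. Versions of miRDeep2 and miRBase are not given in the sources used here.

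Precursor sequences were identical to NCBIM37, the assembly named mm9, and genes are those of GENCODE vM1. Entries of the replicates were paired at an overlap of at least 50% on one strand. Where a table states that reads lay on the arm opposite to the named one, the arm with the reads was used. Shares are means ± SD with 95% Wilson intervals. Mature reads, and mature against star reads, were compared between replicates with two-sided exact binomial and Fisher's exact tests for precursors with at least 20 reads in sum and Benjamini-Hochberg adjustment over all tested, at 0.05. These tests compare the 2 libraries and cover counting error only. They were tried on simulated counts that held counting error only. This cannot show how they behave where libraries differ by more than counting error. Alternatives were other read minimums, all precursor reads, mature sequences counted once, edgeR 4.0.16 and DESeq2 1.42.0 scaling, and leaving out a replicate. ViennaRNA 2.7.2, scipy 1.17.1 and statsmodels 0.14.6 were used. Named miRNAs are the members, their neighbours in rank, precursors with the same seed, the ends of the vascular list and the cell type lists, with the leading star shares and the comparison of arm use between miR-221 and miR-222 added after values were seen. Members and lists were chosen with earlier results of these data known.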

Additional observations from a re-analysis of the deposited data

How the results depend on the processing

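Counting each mature sequence once raised the shares of miR-126a-3p, miR-221-3p and miR-222-3p to 3.95%, 0.00342% and 0.00173% of mature reads, since repeated sequences then leave the total. With all reads of the precursor the shares of miR-126a and miR-222 were 2.97% and 0.00131%. The ratio of miR-221 to miR-222 turned to 0.583 from star reads, which number 1 to 6 per precursor and replicate. In 5 further alternatives the shares or the ratio moved by less than 1 SD, and in 7 the counts of precursors called moved by less than 1.5 times. With 2 replicates, leaving out either one gives the value of the other and says nothing about stability, and without replicate 2 the star share of miR-222 was 3.17%, without replicate 1 8.82%. Star shares over all reads of the precursor equal those reported, as no loop reads were listed. For single miRNAs, TMM and DESeq2 scaling changed the call of miR-126a-3p, DESeq2 scaling turned the log2 ratio of miR-222-3p to -0.0044, with no call, and 18 other values kept their direction and call. No paired analysis was possible because there is 1 group. Depth limits the 5p arms of miR-221 and miR-222, and 2 replicates limit every SD.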
